A study of Rattus norvegicus with 58 samples.

Results

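Cd36, Fabp1, Slc27a2 and Slc27a5 encode proteins through which liver cells take up and bind long-chain fatty acids, and their transcripts were followed array by array in 58 rat livers. Each of these 4 genes was found, out of 14217 genes with a probe set of their own among 31042 probe sets, a probe set being the group of array oligonucleotides that reports one transcript. Each had exactly 1 probe set with its symbol alone in the platform annotation, so the rule of taking the probe set of highest mean left no choice. These were 1367689_a_at for Cd36, 1369111_at for Fabp1, 1368150_at for Slc27a2 and 1387325_at for Slc27a5. A further probe set, 1386901_at, is annotated to both Cd36 and its neighbour Cd36l1 and served as a check. The probe sets were selected on their mean over all arrays and not on any difference between groups.

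The livers came from male rats aged 17 weeks and fasted overnight. There were 23 heterogeneous stock (HS) rats with glucose intolerance, set against 23 HS rats with normal glucose tolerance, and WKY, M520, F344, BUF, BN and ACI, all inbred, contributed 2 rats each. The HS is an outbred colony descended from inbred founders, the 6 strains profiled here among them. Group membership of the HS rats rests on titles that read high or low glucose, since the description of the intolerant rats mixes the words normal and intolerance. The labels name no treatment other than the fast, and no transgene. Nothing in them tells whether same-strain rats shared a litter or a day, and each p-value therefore reflects only how much these arrays differed.

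Fatty acids released by adipose tissue during a fast reach the liver bound to albumin and enter hepatocytes partly by way of membrane proteins. CD36 is a scavenger receptor that binds long-chain fatty acids and oxidised lipoproteins, and it is also carried by macrophages, endothelium, platelets and adipocytes. FATP2, the product of Slc27a2, takes part in uptake and also activates very long-chain fatty acids with coenzyme A, while FATP5, the product of Slc27a5, is a liver protein that takes part in fatty acid uptake and couples bile acids to coenzyme A. FABP1 is the abundant fatty acid binding protein of the hepatocyte cytosol. Fabp1 is a known target of PPAR-alpha, the nuclear receptor that is activated by fatty acids and that binds repeats of AGGTCA as a dimer with RXR.

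Promoters of 3 of the genes are shown because Fabp1 and Slc27a2 varied together across the outbred rats while Cd36 had by far the widest spread. All 4 members matched a RefSeq promoter of the GRCr8 build, running from 250 bases before to 50 bases after the annotated gene start. Capitals mark copies of AGGTCA, searched on both strands, and in Fabp1 the longer run in which 2 copies of AGGNCA stand 1 base apart. Both read as their reverse complement in the lines below.
Fabp1 (GRCr8, chr4:104749090-104749389, plus strand): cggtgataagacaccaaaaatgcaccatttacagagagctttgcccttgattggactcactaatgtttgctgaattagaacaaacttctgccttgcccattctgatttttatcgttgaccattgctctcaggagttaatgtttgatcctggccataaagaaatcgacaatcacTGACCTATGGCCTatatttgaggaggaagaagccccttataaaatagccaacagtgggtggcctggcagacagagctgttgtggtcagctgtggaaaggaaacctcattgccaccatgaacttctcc
Slc27a2 (GRCr8, chr3:134257851-134258150, plus strand): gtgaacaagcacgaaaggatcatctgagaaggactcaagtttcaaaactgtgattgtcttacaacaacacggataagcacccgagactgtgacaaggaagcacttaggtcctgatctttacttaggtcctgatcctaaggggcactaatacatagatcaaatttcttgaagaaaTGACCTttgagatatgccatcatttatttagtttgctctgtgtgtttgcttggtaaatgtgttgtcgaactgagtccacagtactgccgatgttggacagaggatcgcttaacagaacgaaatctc
Cd36 (GRCr8, chr4:18246332-18246631, plus strand): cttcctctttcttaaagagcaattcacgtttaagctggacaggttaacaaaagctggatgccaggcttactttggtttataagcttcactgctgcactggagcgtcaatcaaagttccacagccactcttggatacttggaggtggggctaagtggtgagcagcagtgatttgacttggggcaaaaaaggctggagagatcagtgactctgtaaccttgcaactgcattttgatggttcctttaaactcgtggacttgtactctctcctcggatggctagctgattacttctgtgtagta
In Fabp1 the run lay at bases -77 to -65 from the start, and in Slc27a2 the AGGTCA copy lay at bases -76 to -71. Of 33469 rat promoters of the same length, 16.2% held AGGTCA and 0.415% held the repeat of AGGNCA, with any overlap allowed. Neither string was in the windows of Cd36 and Slc27a5, and a match or its lack is a description of these letters alone. TATAAA was also searched on both strands. It lay in the Fabp1 window at bases -40 to -35 and, on the opposite strand, in the Cd36 window at bases -175 to -170, and 14.2% of the promoters held it.

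All values are log2 signals as deposited, on which a difference of 1 is a 2-fold difference, and signals of different probe sets are not set against each other as transcript amounts. Array medians lay between 5.33 and 5.39, and same-strain arrays correlated at 0.989 to 0.997. Listed hepatocyte markers averaged 13.2 to 13.6 in each HS array and 13.3 to 13.7 in each inbred array, which fits the labelled tissue. No scan date or batch is given in the sources used here. The first component of variation among the HS arrays, computed over all probe sets after removing the means of the glucose groups, held 17.97% of the variance. All arrays were scored on it, and the lowest scores were those of BUF array 2 (-53.8), normal rat 39 (-44.8), intolerant rat 41 (-44.1), normal rat 16 (-37.6), intolerant rat 18 (-35.4) and F344 array 2 (-32.3). What this component stands for was not tested, and several results below are given with and without it.

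Cd36 varied over a wider range than the other 3 members in the outbred livers. It ran from 5.40 through a median of 8.20 to 9.80 in the intolerant rats, and from 5.43 through a median of 8.02 to 9.75 in the normal rats, so that the highest and the lowest of the 46 HS livers differed 21.1-fold. The SD within the glucose groups was 1.09, larger than that of 99.8% of the 31042 probe sets, and the median SD of all probe sets was 0.173. The lowest livers were intolerant rat 41 (5.40) and normal rat 39 (5.43), which also had scores among the lowest on the first component.

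Fabp1, Slc27a2 and Slc27a5 were steady by comparison. Fabp1 ran from 13.79 through a median of 14.01 to 14.23 in the intolerant rats, and from 13.56 through a median of 13.99 to 14.15 in the normal rats. Its SD of 0.122 within the glucose groups was larger than that of 9.36% of the probe sets. Slc27a2 ran from 13.29 through 13.47 to 13.57 in the intolerant rats, and from 13.25 through 13.49 to 13.63 in the normal rats. With an SD of 0.0928, larger than that of only 1.18% of the probe sets, it was among the least variable measurements on the array. Slc27a5 ran from 12.53 through 12.87 to 13.19 in the intolerant rats, and from 12.67 through 12.97 to 13.14 in the normal rats, and its SD of 0.161 was larger than that of 40.1% of the probe sets. The highest value on the arrays was 14.97, and how far signals near it are compressed was not tested.

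**Figure D1:**
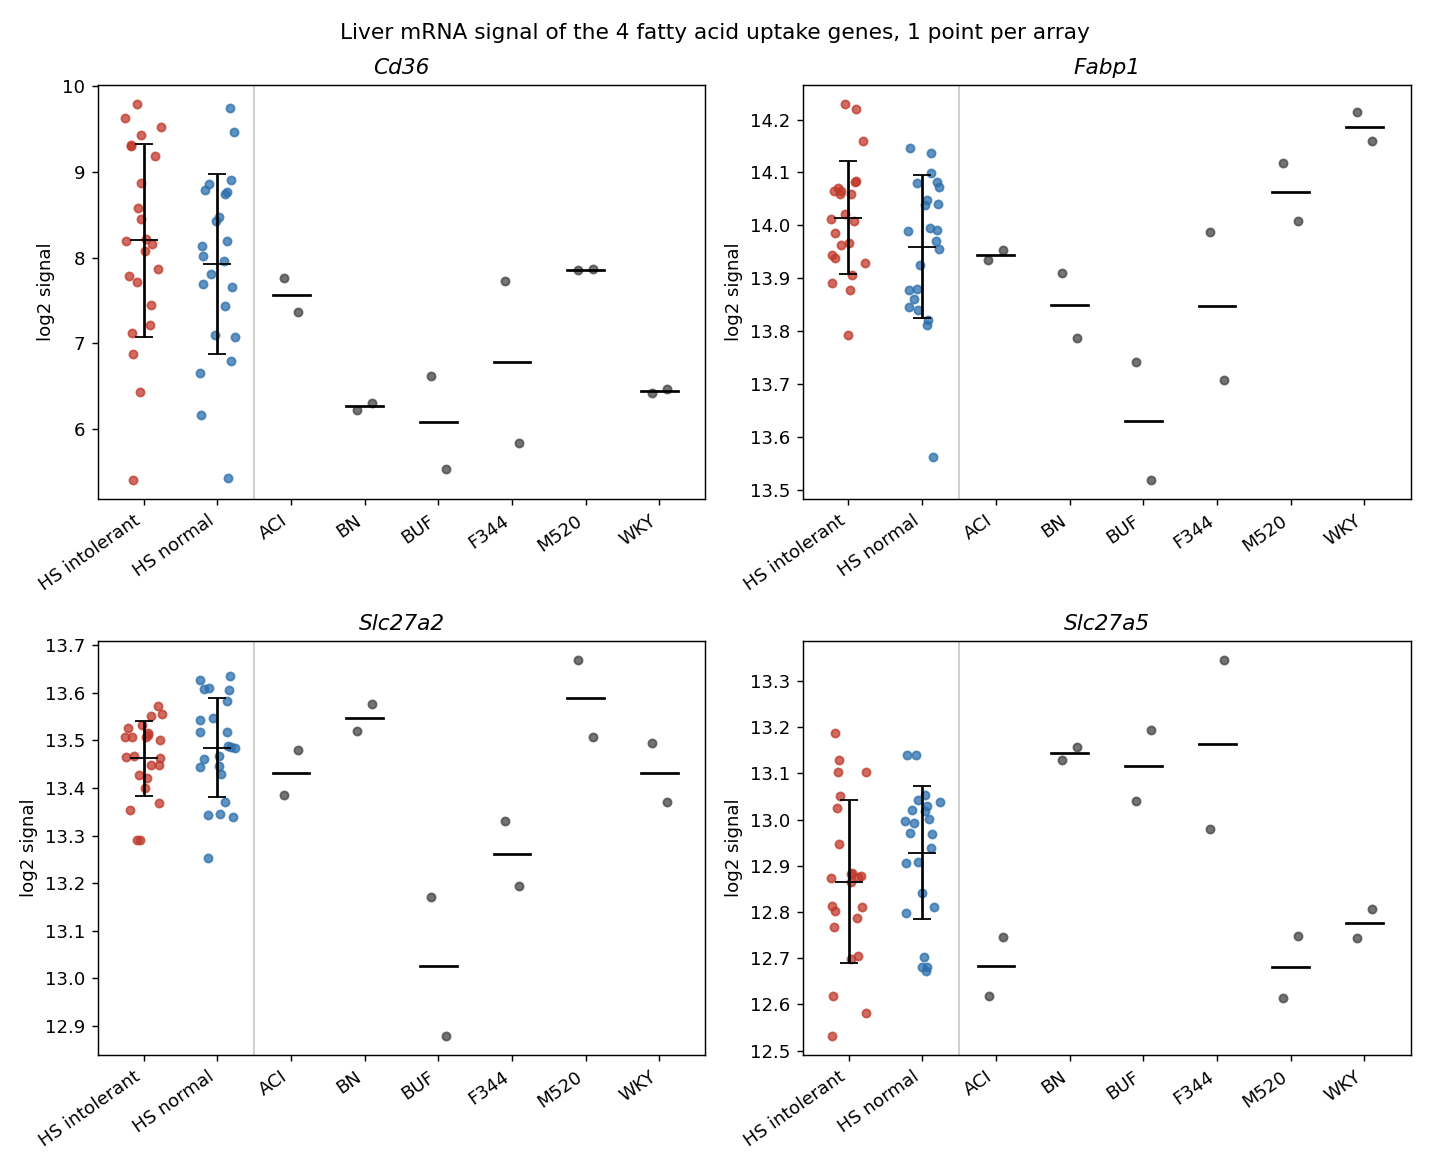
Log2 signal of Cd36, Fabp1, Slc27a2 and Slc27a5 in each array, with glucose-intolerant HS rats (red, n = 23) left of glucose-normal HS rats (blue, n = 23) and then 6 inbred strains (grey, n = 2 each); horizontal lines are group means and the bars on the HS groups are SD. The HS groups overlap for every gene, Cd36 spans over 4 log2 units (4.40) in intolerant rats, and the vertical scale differs between panels.

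The first comparison asked whether these transcripts differ with glucose tolerance in HS rats, and no difference was detected for any of the 4. Cd36 averaged 8.20 ± 1.13 in intolerant rats against 7.92 ± 1.05 in normal rats (SD over 23 rats each), so that they differed by 0.28 ± 0.31 (SE) with a 95% interval from -0.34 to 0.90 and an adjusted p = 0.848 by limma. The whole range of one group lay over that of the other, and the interval for Cd36 is the widest of the 4. Fabp1 averaged 14.01 ± 0.11 in intolerant rats against 13.96 ± 0.14 in normal rats (SD over 23 rats each), which is 0.05 higher with a 95% interval from -0.02 to 0.13 and an adjusted p of 0.718 in limma. For Slc27a2 the means were 13.46 ± 0.08 in intolerant rats against 13.48 ± 0.10 in normal rats (SD over 23 rats each), differing by -0.02 with an interval from -0.08 to 0.04 and an adjusted p of 0.875. For Slc27a5 they were 12.87 ± 0.18 in intolerant rats against 12.93 ± 0.14 in normal rats (SD over 23 rats each), differing by -0.06 with an interval from -0.16 to 0.03 and an adjusted p of 0.751. The intervals of these 3 members end at -0.16 and 0.13 at their widest. Of all 31042 probe sets, limma called 0 (0%) at an adjusted p of 0.05 and 2483 had an unadjusted p under 0.05, none of them a member's. With the first component as a covariate the Cd36 difference was 0.02, with an adjusted p of 0.988.

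**Figure D2:**
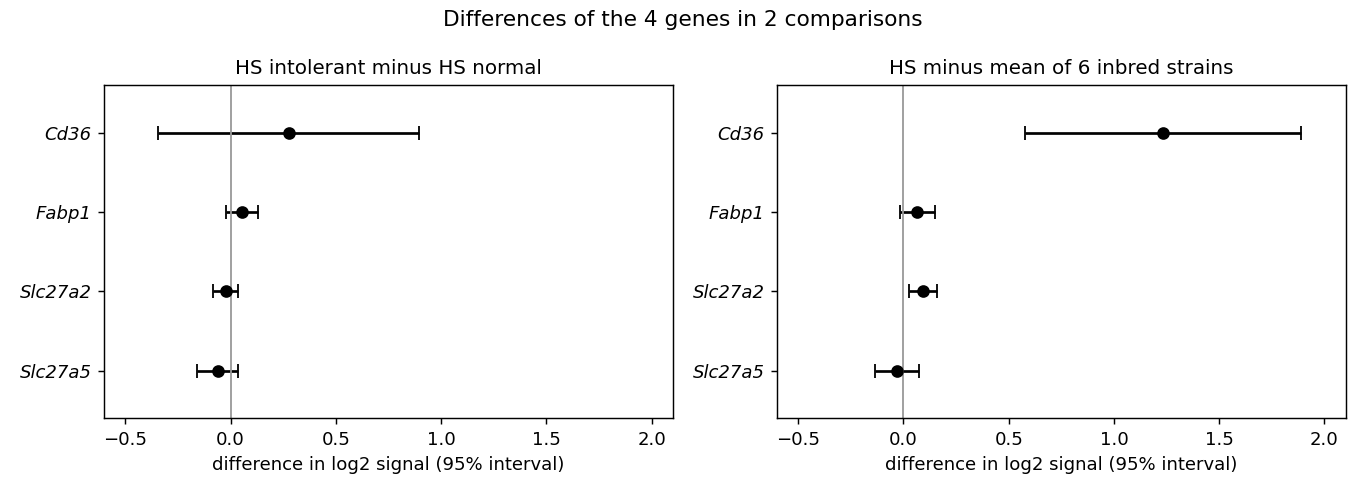
Difference in log2 signal (points) with its 95% interval (bars) for the 4 genes, intolerant minus normal HS rats on the left (n = 23 each) and HS rats minus the mean of 6 inbred strains on the right (n = 46 and 12). All 4 intervals on the left include 0. On the right those of Cd36, from 0.58 to 1.89, and of Slc27a2, from 0.03 to 0.16, do not. Intervals on the right rest on the spread within groups, not between strains, and hold for these 6 strains only.

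Outbred livers had more Cd36 signal than the mean of these 6 inbred strains, and Cd36 was the only member called in that comparison. The SE and p-values here use the spread within groups, not between strains, and say nothing of other inbred strains. HS livers averaged 8.06 against 6.83 for the mean of the 6 strains, a difference of 1.23 ± 0.33 (SE), or 2.35-fold, with an adjusted p of 0.0170 in limma over 31042 probe sets, of which 5.05% were called. The inbred arrays ran from 5.53 to 7.86 and lay within the HS range. The highest inbred array, M520 array 2, was above only 18 of the 46 HS livers. The difference was not called without BUF array 2 (1.14, adjusted p = 0.0670 in limma) or without F344 array 2 (1.07, adjusted p = 0.0800), and it was 0.98 (adjusted p = 0.195) without both. These were the inbred arrays of lowest score on the first component, and with that score as a covariate the difference was 0.65, with an adjusted p of 0.106. Hybridisation batch and stock cannot be told apart.

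The other members were not called between HS and inbred livers. Slc27a2 averaged 13.47 in HS livers and 13.38 over the strains, a difference of 0.09 ± 0.03 (SE) with an adjusted p of 0.0908 in limma. It was called without BUF array 1, at 0.12 with an adjusted p of 0.0275. Fabp1 averaged 13.99 in HS livers and 13.92 over the strains, and the difference of 0.07 had an adjusted p of 0.370. Slc27a5 averaged 12.90 in HS livers and 12.93 over the strains, a difference of -0.03 with an adjusted p of 0.807.

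Among the inbred strains no member was called by the F test over all 6, where 11.9% of probe sets were called. Cd36 had 7.85 and 7.86 in M520, 7.76 and 7.36 in ACI, 7.73 and 5.83 in F344, 6.42 and 6.46 in WKY, 6.22 and 6.30 in BN, and 6.62 and 5.53 in BUF. Means ran from 7.86 in M520 to 6.08 in BUF, a range of 1.78 or 3.44-fold, with an adjusted p of 0.0851 for limma's moderated F test. M520 and ACI stood above every array of BN, BUF and WKY. The 2 F344 arrays lay apart by 1.90, more than all strain means did, and F344 overlapped its neighbours in the order on both sides. The 2 BUF arrays lay 1.09 apart, and BUF overlapped BN.

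The tests of Cd36 over the strains changed with those arrays. Without F344 array 1 the adjusted p of the F test was 0.00405, without F344 array 2 it was 0.00452, and without BUF array 1 it was 0.0429. With both BUF array 2 and F344 array 2 left out, a setting chosen after seeing the data, the range was 1.59 with an adjusted p of 0.000597, and with the first component as a covariate it was 1.10 with an adjusted p of 0.0471. Against the mean of the other 5 strains, M520 was higher by 1.23 ± 0.37 (SE, adjusted p = 0.0836 in limma, 4.65% of probe sets called), and it was called at 1.34, 1.42 and 1.04 without BUF array 1, F344 array 1 and F344 array 2. BUF was lower by 0.90 on the log2 scale (-0.90, adjusted p = 0.169), ran from -1.45 without BUF array 1 to -0.36 without BUF array 2, and was 0.27 above them with the first component as a covariate. It was called at -1.09 without F344 array 2, as was BN at -0.87. ACI was higher by 0.88 (adjusted p = 0.277), was -0.16 with that covariate, and was called at 1.07 without F344 array 1. Of 15 pairs of strains, 0 were called for Cd36 in limma, where 3.88% of all probe set pairs were called. Leaving out 1 array gave 0 to 7 called pairs, with 7 without F344 array 1, 5 without F344 array 2 and 2 without BUF array 1.

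Slc27a2 was lowest in BUF, and this was the only call of a member for any strain against the other 5. BUF had 13.17 and 12.88, below each of the 46 HS livers and below the other 10 inbred arrays, among which F344 had 13.33 and 13.19, ACI 13.39 and 13.48, WKY 13.49 and 13.37, BN 13.52 and 13.58, and M520 13.67 and 13.51. The mean of BUF was 13.02, against 13.45 for the mean of the other 5, a difference of -0.43 ± 0.11 (SE) with an adjusted p of 0.0392 in limma, where 5.76% of probe sets were called for BUF. The call was lost in 9 of 12 fits that left out 1 inbred array, with differences from -0.57 to -0.28 and adjusted p-values from 0.0165 to 0.560. It held without BUF array 1, F344 array 2 or WKY array 2. It was also lost with the first component as a covariate (-0.30, adjusted p = 0.531). Of 15 pairs, 2 were called, with BUF lower than M520 by 0.56 on the log2 scale (-0.56, adjusted p = 0.0395) and BN higher than BUF by 0.52 (adjusted p = 0.0468), and leaving out 1 array gave 0 to 4 called pairs. The F test over the 6 strains gave a range of 0.56 and an adjusted p of 0.0831.

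Fabp1 had its highest strain mean in WKY and its lowest in BUF. It measured 14.21 and 14.16 in WKY, 14.12 and 14.01 in M520, 13.93 and 13.95 in ACI, 13.91 and 13.79 in BN, 13.99 and 13.71 in F344, and 13.74 and 13.52 in BUF. Both WKY arrays lay above all other inbred arrays and above 44 of the 46 HS livers, and BUF array 2 lay below every HS liver. The range of 0.56 had an adjusted p of 0.111 in limma's F test. BUF was 0.35 below the other 5 strains (-0.35, adjusted p = 0.0752), which was called without BUF array 1 (-0.46, adjusted p = 0.0469) and was -0.24 without BUF array 2. WKY was 0.32 above its own other 5 (adjusted p = 0.124, 4.74% of probe sets called for WKY). The pair of BUF and WKY was the only one of 15 called for Fabp1, with a difference of -0.56 and an adjusted p of 0.0353, and leaving out 1 array gave 0 to 2 called pairs. The means of BN and F344 differed by 0.0009 and could not be ordered.

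Ordered by Slc27a5 mean, the strains fell into 3 with higher and 3 with lower signal, a split read from these same values. F344 had 12.98 and 13.35, BN 13.13 and 13.16, and BUF 13.04 and 13.19, while WKY had 12.74 and 12.81, ACI 12.62 and 12.75, and M520 12.61 and 12.75. All 6 arrays of the first 3 strains lay above all 6 of the other 3, with no overlap. How many other probe sets part some 3 strains from the other 3 in this way was not counted. Within each trio neighbouring strains overlapped, and the gap between BUF and WKY was 0.34. The range of 0.48 had an adjusted p of 0.0583 in limma's F test, which passed the threshold without BUF array 1 (0.0476) or F344 array 1 (0.0306). No strain was called against the other 5 for Slc27a5, for which the differences ran from -0.30 in M520 to 0.28 in F344. The shares of all probe sets called were 2.42% for ACI, 4.68% for BN and 1.61% for F344. Of 15 pairs, 0 were called in limma.

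The probe set shared by Cd36 and Cd36l1 followed Cd36 in most livers. Over the 46 HS livers the 2 probe sets correlated with r = 0.88 and rho = 0.88 (permutation p = 1e-05, the smallest that 100000 permutations can give). Its difference between HS and inbred livers was 0.82 with an adjusted p of 0.0193, and that between intolerant and normal rats was 0.06 with an adjusted p of 0.959, both in limma. In M520 it was 0.90 above the other 5 strains, with an adjusted p of 0.0161, and the F test called it with an adjusted p of 0.0204. In the order of means the probe sets placed BUF differently. The shared one had 9.11 and 9.01 there, a mean second only to M520 with 9.78 and 9.49, whereas BUF had the lowest mean of the probe set of Cd36 alone. ACI (9.06 and 8.92), F344 (9.19 and 8.50), WKY (8.66 and 8.27) and BN (8.54 and 8.12) followed. The arrays of BUF overlapped those of ACI and F344, and neither pair was called (adjusted p = 0.885 and 0.785 in limma), so that this second place is not resolved. In GRCr8, Cd36l1 and Cd36-ps1 lie beside Cd36 on chromosome 4, and how far signal from such neighbours enters either probe set was not tested.

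Across the HS livers Fabp1 and Slc27a2 varied together. Their correlation was r = 0.56 and rho = 0.65 over 46 rats (permutation, 100000 resamples, two-sided, Pearson p = 0.00016, adjusted p = 0.00096 over the 6 pairs of members). It was 0.71 within the intolerant rats and 0.55 within the normal rats, and 0.64 without the 2 rats farthest from the median of Fabp1. With the first component removed it was 0.43. That component came from these same arrays and correlated with both genes, so its removal shifts r by itself and no p is given. Fabp1 and Slc27a5 varied in opposite directions, with r = -0.36, rho = -0.38 and an adjusted permutation p of 0.0200, and r was -0.26 in intolerant and -0.42 in normal rats. That relation was -0.17 with the first component removed.

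Cd36 followed Fabp1 and Slc27a2 less closely. Its correlation with Fabp1 was r = 0.45 and rho = 0.35 (adjusted permutation p = 0.00459), at 0.30 in intolerant and 0.56 in normal rats, and 0.39 without the 2 rats farthest from the median. In intolerant rats alone, leaving out the 2 farthest gave -0.03, so that the relation there rested on those rats. With Slc27a2 Cd36 had r = 0.40 and rho = 0.35 (adjusted permutation p = 0.0104), at 0.38 in intolerant and 0.47 in normal rats. This was 0.25 over all HS rats without the 2 farthest. With the first component removed the values were 0.02 for Fabp1 and 0.03 for Slc27a2, and the probe set shared with Cd36l1 gave 0.21 and 0.26. The component itself correlated with Cd36 at r = 0.74, with Fabp1 at 0.57, with Slc27a2 at 0.55 and with Slc27a5 at -0.35. Its removal therefore shifts these correlations by itself.

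For Cd36 and Slc27a5 the removal worked the other way. They had r = 0.05 and rho = 0.08 as deposited (adjusted permutation p = 0.745). With the first component removed, a setting chosen after seeing the data, r was 0.54 and rho 0.51. The component was computed from these same arrays and correlated with Cd36 at 0.74 and with Slc27a5 at -0.35. Its removal therefore raises their r by itself, and no p is given for that setting. The probe set shared with Cd36l1 correlated with Slc27a5 at r = 0.33 without any removal (adjusted permutation p = 0.0548). Slc27a2 and Slc27a5 had r = -0.14 and rho = -0.15 (adjusted permutation p = 0.408).

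**Figure D3:**
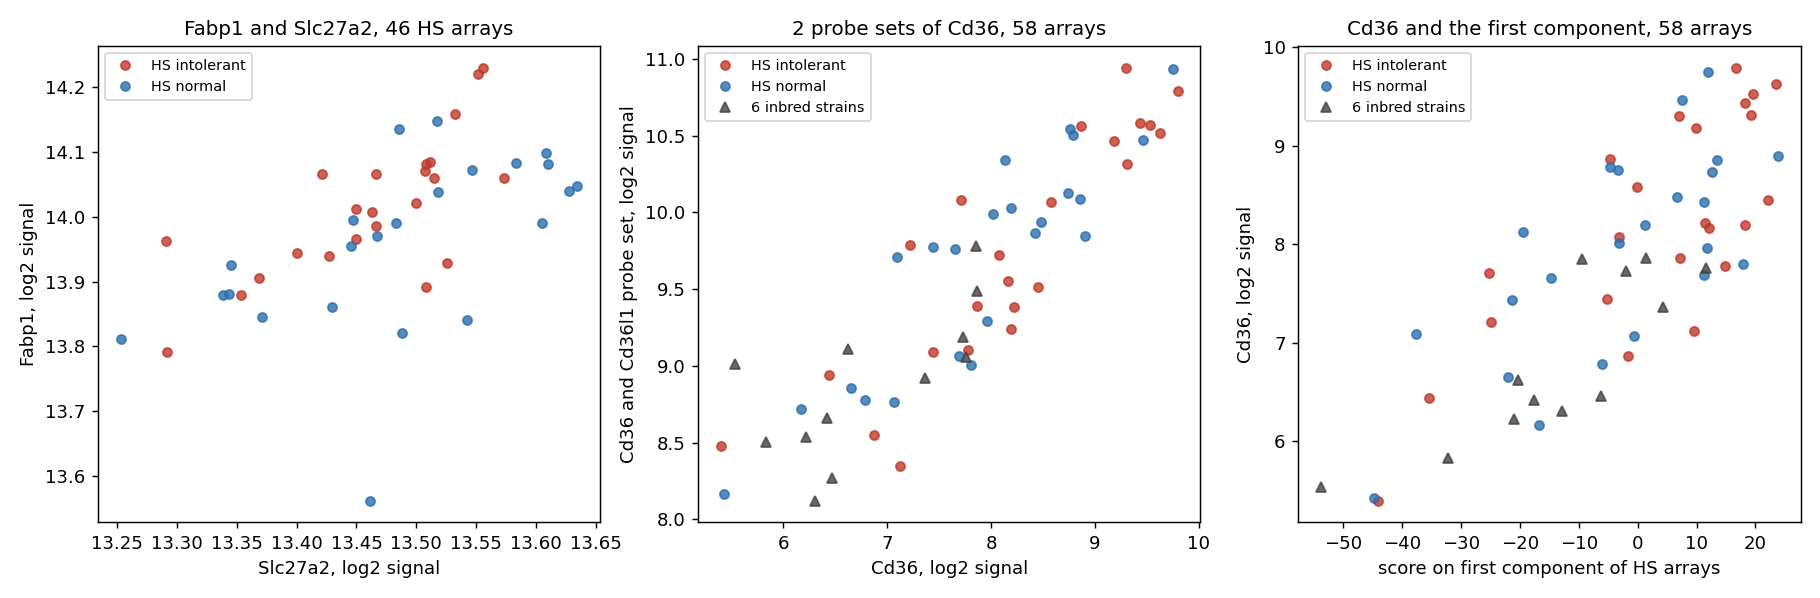
Left, log2 signals of Fabp1 and Slc27a2 in 46 HS livers (red intolerant, blue normal, r = 0.56); middle, the probe set shared by Cd36 and Cd36l1 against the probe set of Cd36 alone in 58 livers, with inbred strains as triangles; right, Cd36 against the score on the first component of the HS arrays (r = 0.74 over the HS livers). The lowest Cd36 values, in red, blue and grey, lie at the lowest scores.

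The genes whose signal was most like that of each member over the 46 HS livers were found by Pearson's r after subtracting the glucose group means. They are described without a p, since all genes share the same arrays. For Slc27a2 the 5 highest were Acad11 (0.81), Hsd17b4 (0.75), Eci1 (0.75), Hadhb (0.74) and Ech1 (0.72). Acad11 is an acyl-CoA dehydrogenase, Hsd17b4 the peroxisomal bifunctional enzyme, Hadhb a subunit of the mitochondrial trifunctional protein, and Eci1 and Ech1 are isomerases for unsaturated fatty acids, so that each of the 5 is known as an enzyme of fatty acid oxidation. With the first component removed they kept r between 0.62 and 0.73. Across the 6 strain means, Eci1 had r = 0.98, Hsd17b4 0.96, Acad11 0.95 and Ech1 0.91 with Slc27a2, while Hadhb had 0.57. BUF had the lowest of these Slc27a2 means, and how far that strain alone sets these values was not tested. The lowest r over the HS livers were those of Hyal3 (-0.71), Ndufa2 (-0.69) and Scnm1 (-0.69).

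For Fabp1 the highest were Hao1 (0.77), the peroxisomal glycolate oxidase, the fibrinogen chains Fgg (0.75) and Fga (0.72), Inhbc (0.73), an inhibin subunit of liver, and Atrn (0.72). The lowest were Hyal3 (-0.76), Tmem177 (-0.74) and Cbs (-0.71), an enzyme of homocysteine removal. Hao1, Fgg and Fga correlated with the first component at 0.35 to 0.38 and kept r = 0.67 to 0.73 with Fabp1 when it was removed.

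For Cd36 the highest were Plbd1 (0.85), Bbox1 (0.82), which makes carnitine, Cct2 (0.81), a chaperonin subunit, Pdha1 (0.81), a subunit of pyruvate dehydrogenase, and Atp1b3 (0.80), a sodium pump subunit. The lowest was Gpld1 (-0.86), a secreted phospholipase D, followed by Camta2 (-0.82) and Gpatch8 (-0.76). Of 14213 genes, 434 had r over 0.6 with Cd36 and 321 under -0.6, against 67 and 58 with Slc27a2, 86 and 86 with Fabp1, and 25 and 0 with Slc27a5. Cct2, Pdha1 and Atp1b3 correlated with the first component at 0.83 to 0.88, and their r with Cd36 was 0.47 to 0.50 with it removed, while Plbd1 kept 0.71. Across the 6 strain means the r with Cd36 was 0.90 for Pdha1, 0.70 for Bbox1, 0.56 for Cct2, 0.33 for Atp1b3 and -0.43 for Plbd1. These rest on 6 means only, so the sign for Plbd1, the gene most like Cd36 in HS livers, is not resolved. In the HS and inbred comparison Plbd1 was 0.44 higher in HS livers, with an adjusted p of 0.00435 in limma. Pdha1 (0.24, adjusted p = 0.0397) and Atp1b3 (0.20, adjusted p = 0.0231) were called higher too, where 5.05% of probe sets were called. Bbox1 (0.26, adjusted p = 0.0813) and Cct2 (0.22, adjusted p = 0.101) were not called. For Slc27a5 the highest were Sergef (0.68), Ptpn2 (0.67), a tyrosine phosphatase, Med12 (0.66), Gtf2f1 (0.66) and Clpp (0.65), and the lowest were Suz12 (-0.59), Plekha3 (-0.58) and Tmsb4x (-0.55).

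The members were then set beside listed genes of fatty acid handling. Over 15 measured PPAR-alpha targets of fat oxidation, the median r was 0.57 with Slc27a2, 0.39 with Fabp1, 0.22 with Cd36 and -0.07 with Slc27a5, whereas the median over 14213 genes lay between -0.06 and 0.05. With Slc27a2, 14 of the 15 had r above 0, and Hadhb (0.74), Aldh3a2 (0.66), Vnn1 (0.65), Ehhadh (0.64) and Cpt1a (0.58) were among the highest. With Slc27a5, 4 of the 15 did. With the first component removed the medians were 0.56 for Slc27a2, 0.36 for Fabp1, 0.16 for Cd36 and -0.01 for Slc27a5. Ppara itself had r = 0.20 with Slc27a2 and 0.45 with Fabp1, and Pparg had 0.46 and 0.58. With Cd36 they had 0.06 and 0.23, and with Slc27a5 -0.04 and -0.26. Their mean signals were low, at 5.14 for Ppara and 5.39 for Pparg, where the median of all values was 5.37. Of 12 peroxisomal oxidation genes, 10 had r above 0 with Slc27a2, among them Hacl1 (0.54) and Crot (0.40), with a median of 0.17. Of all genes 46.4% had r above 0 with Slc27a2. Lipid droplet genes had r above 0 with Slc27a5 in 14 of 15, with a median of 0.18, where 58.8% of all genes did, and with the first component removed this was 12 of 15 with a median of 0.13. Genes of bile acid synthesis and conjugation, the other pathway of Slc27a5, had a median r of -0.07 with it, and 3 of 9 were above 0.

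**Figure D4:**
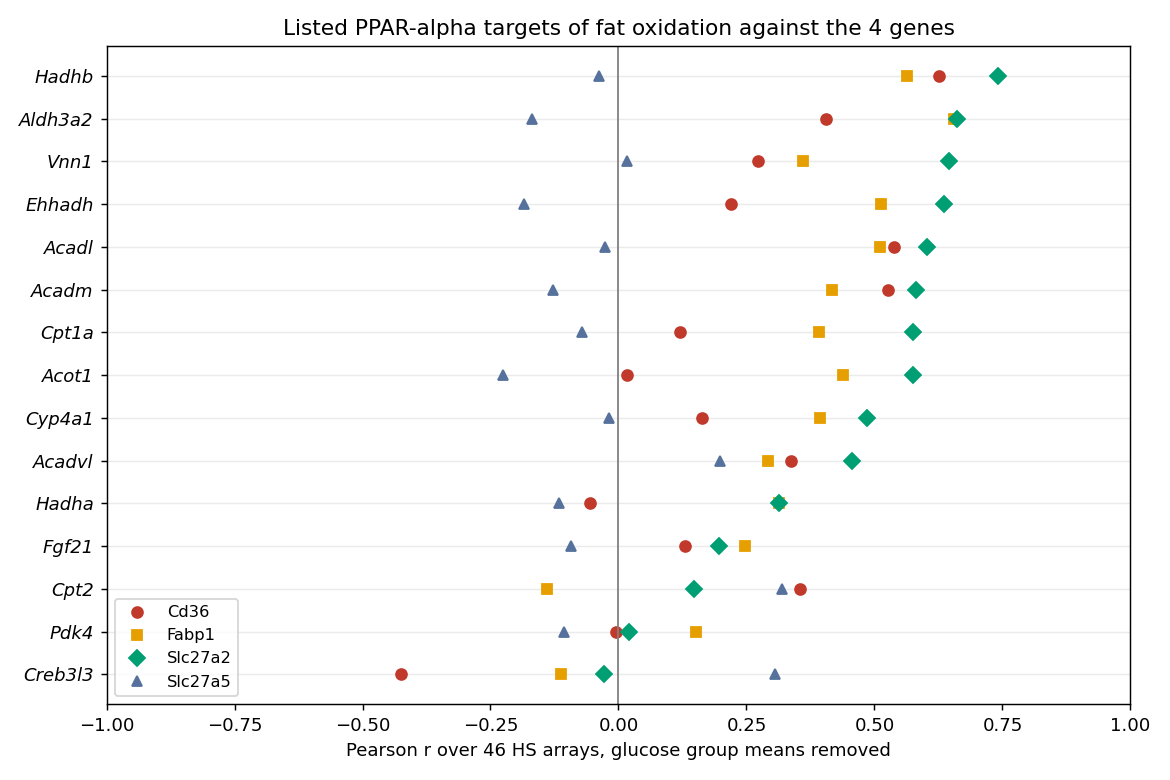
Pearson r of 15 listed PPAR-alpha target genes (rows) with Cd36 (circles), Fabp1 (squares), Slc27a2 (diamonds) and Slc27a5 (triangles) over 46 HS livers, with glucose group means removed. Slc27a2 lies above 0 for 14 of the 15, Fabp1 for 13, Cd36 for 12 and Slc27a5 for 4.

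None of the 102 listed pathway genes was called between intolerant and normal rats in limma, where 0 of all 31042 probe sets were called. An unadjusted p under 0.05 was found for 12 of the 102 genes and for 2483 of the 31042 probe sets. Over the strains the F test called 5 of 11 acyl-CoA synthetases, the enzymes that trap fatty acids by coupling them to coenzyme A, with ranges of 3.99 for Acsm3, 3.19 for Acsm5, 1.10 for Acsbg1 and 0.96 for Acsf2. It called 4 of 14 other fatty acid transport and binding genes, namely Fabp5 with a range of 1.97, Fabp7 with 1.79, Scarb1 with 0.85 and Scarb2 with 0.75. It called 6 of 15 lipid droplet genes, with ranges of 1.78 for Cidea, 1.44 for Plin5 and 1.35 for the droplet coat gene Plin2, and 3 of 15 PPAR-alpha targets. Of 16 nuclear receptors and liver factors it called 6, Nr1i3 with a range of 1.95, Ahr with 1.74, Ppara with 1.24 and Pparg with 1.06 among them. It called 4 of 9 bile acid genes, with 2.63 for Cyp7b1 and 1.59 for Cyp8b1, 2 of 12 peroxisomal genes, and Lpl alone of 10 genes of lipoprotein lipolysis and uptake. The test called 13.8% of all genes. Mean signals of Ahr, Ppara, Ppargc1a, Acsbg1 and Cyp7b1 lay below the median of all values. The F test called 29 of the 102 pathway genes with the first component as a covariate, against 31 without it, and 27 were called both ways. Without BUF array 2 and F344 array 2 it called 24, with 3 of the lipid droplet genes and 0 of the PPAR-alpha targets among them.

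In BUF, where Slc27a2 was low, 3 of 15 PPAR-alpha targets were called lower than the other 5 strains, namely Vnn1 (-1.15), Cpt1a (-0.61), the entry step of mitochondrial oxidation, and Acadm (-0.45), an acyl-CoA dehydrogenase. In the same strain 3 of 12 peroxisomal genes were called lower, Hacl1 (-1.10), Acox2 (-0.92) and Hsd17b4 (-0.66), and of the 16 nuclear receptors and factors Ahr (-1.20), Ppara (-0.85, adjusted p = 0.0125 in limma) and Ppargc1a were. The share of all genes called in BUF was 6.86%, and 13 of the 102 pathway genes were called. Most of these calls were lost with the first component, on which BUF array 2 had the lowest score. Given the component as a covariate, 2 of the 13 were called, Acsm5 (-1.98) and Fabp7 (-1.40), against 0.936% of all genes, and none of the PPAR-alpha targets, peroxisomal genes or factors was. Without BUF array 2 and F344 array 2 Acsm5 alone was called, against 0.781% of all genes. Markers of other cells were also called in BUF against the other 5 strains. Lower were Clec4f (-0.70) and Csf1r (-0.76) of 8 Kupffer cell genes, Lyve1 (-0.81) and Emcn (-0.55) of 9 endothelial genes, and Col3a1 (-1.22) and Lrat (-0.96) of 9 stellate cell genes. Higher were Eng (0.87) of endothelium, the platelet gene Itga2b (0.63) and the red cell gene Slc4a1 (0.84), and 0 of 8 hepatocyte markers were called in limma. A positive difference in BUF was found for 1 of 8 Kupffer cell, 2 of 9 endothelial and 4 of 9 stellate cell genes. Given the first component as a covariate, 1 of these Kupffer cell calls and 1 of the endothelial calls held. The stellate cell, platelet and red cell calls were all lost. The part of these cells in the BUF results was not tested.

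In HS livers against inbred ones, 11 of the 102 pathway genes were called, against 5.66% of all genes. The acyl-CoA synthetases Acsm5 (1.08), Acsl5 (0.58) and Acsl1 (0.14) rose and Acsf2 fell (-0.39). Of the PPAR-alpha targets Vnn1 (0.63), Hadhb (0.36) and Acadl (0.26) rose, and 12 of the 15 had a positive difference with a median of 0.09. Of the transport genes Scarb1 (0.27) and Got2 (0.09) rose. Lpl, which releases fatty acids from lipoproteins, rose by 0.44 and Ppard fell (-0.35). Of these 11, 7 were called with the first component as a covariate, Acsm5, Acsl5, Vnn1, Hadhb, Acadl, Scarb1 and Ppard, and without BUF array 2 and F344 array 2 it was 5 of them, Acsm5, Acsl5, Hadhb, Acadl and Ppard. The shares of all genes called were then 3.88% and 1.67%. Bulk liver cannot tell fewer cells of a type from less RNA per cell.

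Markers of other cells that carry CD36 were followed beside Cd36. The level of each list was taken as the mean log2 signal of its genes per array. For 8 Kupffer cell and macrophage genes it ran from 7.59 to 9.20 in HS livers and from 8.25 to 9.79 in inbred livers. For 9 endothelial genes it ran from 7.44 to 8.29 in HS livers and from 7.64 to 8.70 in inbred livers. For 5 adipocyte genes it ran from 5.43 to 5.93 in HS and 5.60 to 5.86 in inbred livers, with Adipoq, Plin1 and Lep below the median of all values. For 4 platelet genes it ran from 5.35 to 5.96 in HS and 5.42 to 5.99 in inbred livers, with Ppbp and Gp9 below that median. Over the HS livers the list means correlated with Cd36 at r = -0.11 for Kupffer cells, -0.12 for endothelium, -0.06 for adipocytes and -0.42 for platelets. Single endothelial genes went both ways, from -0.51 to 0.36, with 3 of 9 above 0. Kupffer cell genes ran from -0.37 to 0.16, with 3 of 8 above 0. With the first component removed the list means gave -0.21 for Kupffer cells, -0.16 for endothelium, 0.01 for adipocytes and -0.18 for platelets. No marker of these 4 lists was called between the glucose groups, and nor was any other of the 31042 probe sets. In HS against inbred livers, where Cd36 was higher, Adgre1 (-0.54) of the Kupffer cell list, Vwf (-0.35) and Eng (-0.28) of endothelium, Cfd (-0.35) of the adipocyte list and the red cell gene Slc4a1 (-0.71) were called lower and no marker of these lists higher, against the 5.66% of all genes. Adgre1 and Slc4a1 were still called with the first component as a covariate, and without BUF array 2 and F344 array 2 none of the 5 was. The part of these cells in the Cd36 values was not tested.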

How the data were processed

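Liver RNA was amplified with a two-cycle kit, labelled with biotin and hybridised, 1 Affymetrix array per rat, per the labels' protocols. The authors deposited log2 values for 31042 probe sets; the submitters' processing notes name Partek, and the sources used here do not state how arrays were normalized. The number of arrays limits the precision. Symbols came from the platform annotation: 20826 probe sets had 1 symbol, 436 several and 9780 none, and 14167 of 14217 gene identifiers were found in the GRCr8 annotation. Values were tested as deposited with limma 3.58.1 (lmFit, eBayes) in R 4.3.3, with Benjamini-Hochberg adjustment over all probe sets and a threshold of 0.05. The fits had 44 residual degrees of freedom for the glucose groups, 6 for the strains and 50 for HS against inbred. Correlations used 100000 permutations, two-sided, adjusted over 6 pairs. Named genes were the members, the 5 highest and 3 lowest in r per member, and per list at most 4 called genes or the 2 of smallest p; marker and r values beside these were chosen after seeing the data. The members and lists were chosen with earlier results of these data known, so they are no independent support. Tests were checked on simulated data with independent noise in each probe set and array, which lack the shared first component seen in the real arrays.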

Additional observations from a re-analysis of the deposited data

How the results depend on the processing

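Of 1147 values under alternatives, 1000 were taken as unchanged. A difference had to keep its direction and side of the threshold, and an F test its side only. A count of calls had to stay near the main count. No member has another single-symbol probe set here, so that alternative was not run. The probe set of Cd36 and Cd36l1 took its place, and it, the first component and the joint removal of BUF array 2 and F344 array 2 were added after seeing the data. Causes of the changes below were not tested, beyond fewer probe sets tested or fewer arrays. Only 2 arrays per strain limit every strain result.

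Calls between glucose groups numbered 0 as deposited, 1 with quantile normalization, 12 with array weights and 0 to 3 with 1 array left out. The F test called 3700 probe sets, 2241 with 1 probe set per gene and 2130 to 5945 with 1 array left out. Strains against the other 5 gave 7410 calls, 4666 with 1 probe set per gene and 4485 to 11901 with 1 array left out. HS against inbred gave 1569 calls, 885 with 1 probe set per gene, 3494 with array weights, 955 with the first component, 433 without both arrays and 689 to 2185 with 1 array left out.

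In the F test the Slc27a5 range of 0.48 was called among brighter probe sets (adjusted p = 0.0492), with 1 probe set per gene (0.0475), with trend and robust variance (0.0311), with array weights (0.0387), with the replicate block (0.0392) and over all 58 arrays (0.0186), and at 0.56 with quantile normalization (0.0374). The replicate numbers do not pair the arrays: 3 of 15 pairs of strains had deviations correlated over 0.1, from -0.146 to 0.421, and the block changed no other call of a member in the F test. The Slc27a2 range of 0.56 was called with trend and robust variance (0.0436) and over 58 arrays (0.000444), and the Fabp1 range of 0.56 over 58 arrays (0.0138). The Cd36 range was called at 1.78 with array weights (0.0470), 1.10 with the first component, 1.59 without both arrays and 1.31 in the shared probe set. With 1 array left out the ranges were 1.59 to 2.33 for Cd36, 0.42 to 0.71 for Slc27a2, 0.46 to 0.67 for Slc27a5 and 0.44 to 0.67 for Fabp1.

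HS against inbred, Cd36 was 0.65 with the first component, 0.98 without both arrays and 1.07 to 1.39 with 1 array left out. Slc27a2 was 0.10 with array weights (0.0239) and 0.068 to 0.12 with 1 array left out. Slc27a5 turned to 0.014 with the first component and without both arrays, and ran from -0.060 to 0.00078 with 1 array left out.

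Among strains against the other 5, the first component turned Cd36 to -0.16 in ACI, 0.27 in BUF and 0.14 in F344, Fabp1 to -0.11 in ACI and Slc27a2 to -0.051 in ACI. Fabp1 in ACI turned to -0.022 with quantile normalization and also without both arrays, which turned F344 to 0.78 for Cd36 and 0.030 for Fabp1. The shared probe set gave 0.21 in BUF. With 1 array left out, Cd36 in F344 ran from -1.01 to 0.89, Fabp1 in F344 from -0.23 to 0.052 and Slc27a2 in WKY from -0.00072 to 0.12. The correlation of Cd36 and Slc27a5 was -0.048 with quantile normalization, and that of Slc27a2 and Slc27a5 0.028 with the first component removed.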
